A study of Mus musculus with 15 samples.

Results

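The data are a miRNA profile of mouse pancreatic endocrine cell lines, measured by real-time PCR on TaqMan Low Density Arrays, and the subject here is the miR-21 and miR-34 families under inflammatory cytokines. All assays named miR-21, miR-34a, miR-34b or miR-34c, of any arm, were taken from the array, which gave 6 assays of the 584 miRNA assays on it: mmu-miR-21, mmu-miR-21*, mmu-miR-34a, mmu-miR-34b-3p, mmu-miR-34c and mmu-miR-34c*. The rule takes assays by their names alone. αTC1-6 is a clonal glucagonoma line with α cell features, and βTC1 is an insulinoma line with β cell features. Both descend from tumors of transgenic mice in which the SV40 T antigen was driven by the glucagon and by the insulin promoter, respectively. There were 5 conditions with 3 replicates each, 15 samples in all: αTC1-6 untreated and αTC1-6 given cytokines, each at 24 and at 48 h post treatment (PT), and untreated βTC1 at 24 h. The cytokine mix held IL1b at 50 IU/ml, IFNg at 1000 IU/ml and TNFa at 1000 IU/ml. No βTC1 sample among the 15 was treated with cytokines.

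MiRNAs are short RNAs that guide the silencing complex to messenger RNAs, mostly by pairing of bases 2 to 8 at their 5′ end, the seed. MiR-21 lowers inhibitors of growth such as Pdcd4, is transcribed in response to NF-κB and STAT3, and is often raised in inflamed tissue and in tumors. MiR-34a, miR-34b and miR-34c are transcribed in response to p53 and lower cell cycle and survival proteins such as Bcl2 and Sirt1; miR-34a has been linked to β cell death. The SV40 T antigen, which both lines carry by origin, binds p53. An asterisk marks the strand of a miRNA hairpin that is usually the less abundant.

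The mature sequences are shown because they decide which members can share targets (RefSeq, mouse build GRCm38.p6, seed in capitals, 5′ to 3′). Of the 6 members, 5 had a sequence in the table used, and miR-34c was named only.
miR-21 (chr11:86584120-86584141, minus strand): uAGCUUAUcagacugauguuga
miR-21* (chr11:86584082-86584103, minus strand): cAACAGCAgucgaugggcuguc
miR-34a (chr4:150068473-150068494, plus strand): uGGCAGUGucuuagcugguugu
miR-34b-3p (chr9:51103574-51103595, minus strand): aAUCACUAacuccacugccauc
miR-34c* (chr9:51103044-51103065, minus strand): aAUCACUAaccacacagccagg
miR-449a (chr13:113037549-113037570, plus strand): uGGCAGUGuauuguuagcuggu
miR-449c (chr13:113036008-113036028, plus strand): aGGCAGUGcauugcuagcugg
The arms of the miR-21 hairpin had different seeds, and only 2 of the 1679 mature sequences in the table carried the seed of miR-21. MiR-34b-3p and miR-34c* had one seed between them, with 17 of 22 bases identical, and their hairpins lay 451 bases apart on chromosome 9. The seed of miR-34a was not theirs. Among the sequences used it was held by 4 mature miRNAs, of which miR-449a and miR-449c are its seed relatives on the array. MiR-34c, miR-449b and miR-590-5p had no sequence there, so the seed counts leave them out. Whether miR-34c shares the seed of miR-34a could thus not be read here. MiR-449b and miR-590-5p were taken as seed relatives by name only. By RefSeq gene spans, the miR-21 hairpin lies in Vmp1, those of miR-34b and miR-34c in a stretch covered by Btg4 and Hoatz, and that of miR-34a in no other gene; exons and introns were not told apart here.

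Levels are given as ΔCt: from the threshold cycle (Ct) of an assay, that of miR-26a measured in the same RNA was subtracted, so that 1 cycle less is 1 unit more on the log2 scale. Log2 differences are the first group named minus the second, and positive values mean more RNA in the first. Every deposited value of the 6 members was a determined Ct, none at the limit of 40 cycles. Ct ran from 18.7 to 21.9 for miR-21, from 23.1 to 26.0 for miR-34a, from 27.0 to 29.0 for miR-34b-3p, from 25.8 to 28.4 for miR-34c*, from 28.5 to 32.7 for miR-21* and from 29.0 to 36.0 for miR-34c. The miR-34c assay, the latest of them, also had the widest replicate spread, with SDs from 0.62 to 4.20 cycles in the 5 conditions. In all, 4 member wells were blank in the normalized table, 1 of miR-21 and 3 of miR-34c*, so n is 2 in those groups.

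As to the samples as a whole, miR-26a was read at a Ct of 16.97 to 18.98. Assays with a Ct numbered 213 to 257 on the first card of the αTC1-6 samples at 24 h, and 303 to 336 at 48 h, while the second card gave 174 to 189 throughout. The deposited tables differ here: on the first card of each αTC1-6 sample at 24 h, 59 to 85 wells stood at the limit of 40 cycles in the normalized table but had a Ct in the table of Ct values, as did 64 to 69 wells of each βTC1 sample and 0 or 1 well of each αTC1-6 sample at 48 h. Differences between the times over all assays therefore also carry this unequal handling; no member well was among those wells. MiR-375, the best known islet miRNA, had a Ct of 13.4 to 16.0 in the 15 samples. Of the acinar miRNAs, in the normalized table, miR-217 was undetermined in all 12 αTC1-6 samples and miR-216a in 11 of 12, with a Ct of 20.9 in 1 treated sample of 48 h, and miR-216b had a Ct in 4 of the 12. In the table of Ct values 1, 2 and 7 of the 12 had a Ct for miR-217, miR-216a and miR-216b. βTC1 had a ΔCt of 7.38 ± 1.23 (SD, n = 3) for miR-216a. Ct values also clustered near whole cycles: 41.6% of all Ct values, and 57.8% of the 90 Ct values in the member rows, lay between 0.1 below and 0.05 above a whole number, so differences of under 1 cycle are less finely resolved than their decimals.

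**Figure D1:**
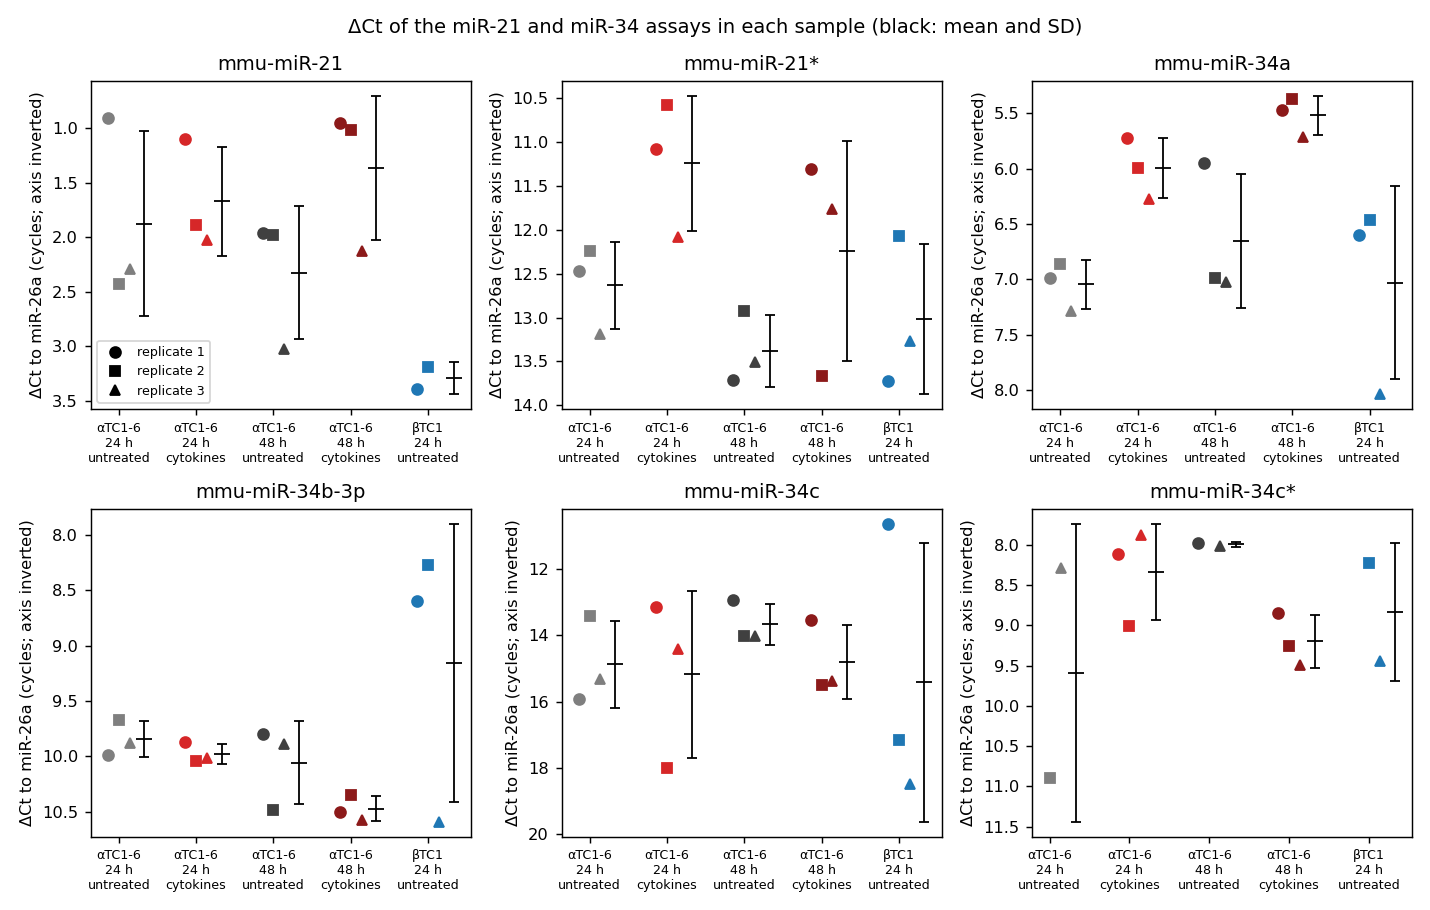
ΔCt to miR-26a (cycles, inverted so that more RNA is higher) of the 6 assays in each of the 15 samples. Points are samples, with the shape giving the replicate number, and black bars are the mean and SD. For miR-34a the 3 treated samples of each time lie above the 3 untreated ones, and for miR-21 both measured βTC1 samples lie below all αTC1-6 samples.

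Cytokine treatment was compared with no treatment within each time to find miRNAs of the α cell response. MiR-34a was the 1 member whose treated and untreated αTC1-6 samples were fully separate at both times. At 24 h PT its ΔCt was 6.98, 6.86 and 7.29 in untreated replicates 1, 2 and 3, and 5.73, 5.99 and 6.27 in the treated ones. At 48 h PT it was 5.95, 6.99 and 7.02 untreated, and 5.48, 5.37 and 5.71 treated. Every treated sample thus held more miR-34a than every untreated sample of its time, and the narrowest gap was between untreated replicate 1 and treated replicate 3 at 48 h. In βTC1 the values were 6.60, 6.46 and 8.04. The RNA is of whole cultures, so more RNA per cell and more cells that hold it cannot be told apart.

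The log2 difference of miR-34a was 1.05 ± 0.33 (SE) at 24 h, a 2.07-fold level with a 95% interval of 0.21 to 1.89, and 1.13 ± 0.41 at 48 h, a 2.20-fold level with an interval of 0.088 to 2.18. By the Limma test the unadjusted p-values were 0.023 and 0.0386, and after Benjamini-Hochberg adjustment over the card they were 0.65 and 0.488, so neither difference passed the threshold of 0.05. The exact permutation test gave p = 0.1 at each time (two-sided, n = 3 and 3), the smallest value that 3 samples against 3 allow. Non-overlap with treated samples above untreated ones occurred in 6.07% of the 445 assays tested at 24 h and in 2.06% of the 534 tested at 48 h. It occurred at both times in 5 of 440 assays, or 1.14%: miR-34a, miR-146a, miR-125b-5p, miR-203 and miR-222. The samples of the 2 times are separate, and the 5 names come from a count made after the values were seen.

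By replicate number, miR-34a was higher in treated cells in 6 of 6 pairs. The log2 differences were 1.26, 0.87 and 1.02 at 24 h, and 0.48, 1.62 and 1.31 at 48 h. Numbers pair the samples here, since over the 278 shared assays same-numbered samples deviated together from their group means. With the replicate number as a block the unadjusted p was 0.0101 at 24 h and 0.043 at 48 h, and the adjusted values of 0.324 and 0.264 did not pass either. The size of the effect did not differ detectably between the times: the effect at 48 h minus that at 24 h was 0.087 ± 0.49 (SE), with an interval of -1.02 to 1.20 and an unadjusted p of 0.864 by the Limma test, in a comparison where 0.21% of the 477 assays passed the adjusted threshold.

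**Figure D2:**
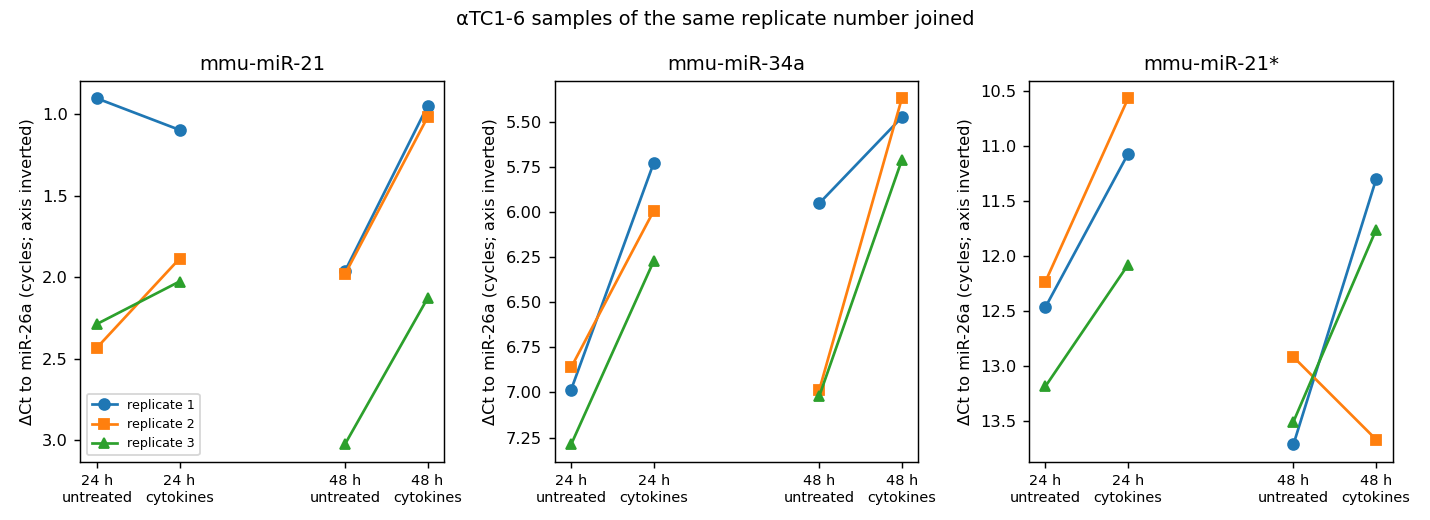
ΔCt to miR-26a (cycles, inverted) of miR-21, miR-34a and miR-21* in αTC1-6, with untreated and treated samples of one replicate number joined by a line. All 6 lines of miR-34a and all 3 lines of miR-21 at 48 h go up, whereas 1 line of miR-21 at 24 h and 1 line of miR-21* at 48 h go down.

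The choice of reference moved the size of the miR-34a difference but not its direction. The median log2 difference over all assays tested was -0.51 at 48 h with miR-26a as reference, and -0.081 when each sample was centred on the median of the 278 assays that had a Ct in all 15 samples. Under that centring the miR-34a difference was 1.20 at 24 h and 1.57 at 48 h. With U6 and small nucleolar RNAs as the reference it was 0.92 and 1.73, and on Ct values without a reference 0.86 and 1.22, where treated and untreated samples overlapped at both times. The adjusted p stayed between 0.308 and 0.993 at 24 h and between 0.233 and 0.994 at 48 h over the 17 alternatives tried at each time.

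A measure that needs no reference is the Ct of one member minus that of another in the same sample and on the same card. For miR-34b-3p minus miR-34a, a pair picked after its values were seen and so given without a test, it was 3.00, 2.81 and 2.59 cycles in untreated and 4.15, 4.04 and 3.74 cycles in treated αTC1-6 cells at 24 h. At 48 h it was 3.85, 3.50 and 2.86 cycles untreated and 5.03, 4.98 and 4.86 cycles treated. The groups did not overlap at either time, and their means differed by 1.18 and 1.55 cycles. For miR-34a minus miR-21, also on 1 card, treated and untreated samples overlapped at both times, and the means, treated minus untreated, differed by -0.84 and -0.18 cycles. In βTC1, miR-34b-3p minus miR-34a was 2.00, 1.81 and 2.55 cycles.

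**Figure D3:**
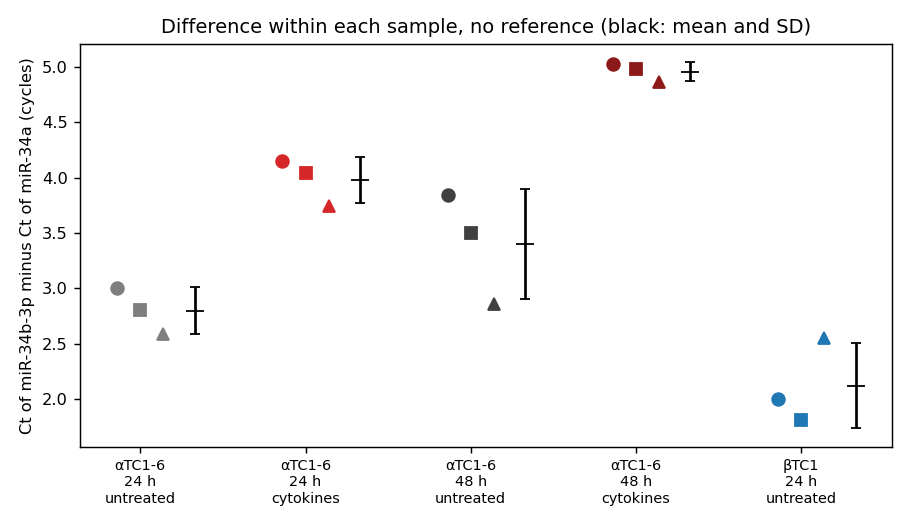
Ct of miR-34b-3p minus Ct of miR-34a (cycles) within each of the 15 samples, by condition, with the mean and SD in black. Treated αTC1-6 samples lie between 3.74 and 5.03 cycles and untreated ones between 2.59 and 3.85, without overlap within a time.

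MiR-21 was measured at early cycles. At 24 h PT its ΔCt was 0.90, 2.43 and 2.29 in untreated and 1.10, 1.89 and 2.03 in treated αTC1-6 cells. These groups overlapped, and the Ct itself was 19.9 to 20.0 in the untreated and 19.8 to 20.0 in the treated samples, with an SD of 0.053 and 0.077 cycles, while the Ct of miR-26a had an SD of 0.79 and 0.53 cycles in these groups. The log2 difference was 0.20 ± 0.57 (SE; adjusted p = 0.963, Limma test), with an interval of -1.22 to 1.63.

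At 48 h the ΔCt of miR-21 was 1.96, 1.98 and 3.03 in untreated and 0.95, 1.02 and 2.13 in treated cells. The groups overlapped, since treated replicate 3 lay below untreated replicates 1 and 2. Within each replicate number, however, with miR-26a as the reference, the treated sample was higher by almost the same amount: 1.01, 0.96 and 0.90 on the log2 scale. The mean difference was 0.96 ± 0.52 (SE), a 1.94-fold level with an interval of -0.38 to 2.30 (unadjusted p = 0.126, adjusted p = 0.684, Limma test; exact permutation p = 0.3). With the replicate number as a block the SE was 0.17 and the unadjusted p was 0.012, while the adjusted p of 0.232 stayed above the threshold. With centring on the median the groups no longer overlapped and the difference was 1.39, and with U6 and small nucleolar RNAs as the reference it was 1.55. Without a reference it was 1.05 ± 0.72 (SE, unadjusted p = 0.202, Limma test). The Ct differences of the pairs, treated minus untreated, were then less alike, at -1.50, -0.23 and -1.40 cycles. With miR-26a as the reference the mean difference was 0.61 without untreated replicate 3 and 1.34 without treated replicate 3.

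The effect of cytokines on miR-21 at 48 h minus that at 24 h was 0.75 ± 0.78 (SE), with an interval of -0.99 to 2.50 and an adjusted p of 0.992, so a difference between the times was not shown. Among the 5 conditions the mean ΔCt of miR-21 ran from 1.36 ± 0.66 (SD, n = 3) in treated αTC1-6 at 48 h through 1.67 ± 0.50 treated at 24 h, 1.87 ± 0.84 untreated at 24 h and 2.32 ± 0.61 untreated at 48 h to 3.29 ± 0.14 (n = 2) in βTC1. Neighbours in that order overlapped, except the last pair. For miR-34a the order was treated at 48 h (5.52 ± 0.18), treated at 24 h (6.00 ± 0.27), untreated at 48 h (6.65 ± 0.61), βTC1 (7.03 ± 0.87) and untreated at 24 h (7.04 ± 0.22), and there only the first 2 did not overlap. That gap was narrow, from 5.712 treated at 48 h to 5.727 treated at 24 h. The Ct ranges of these 2 groups, 23.08 to 23.96 and 23.95 to 24.60, overlapped.

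MiR-21*, from the other arm of the miR-21 hairpin, was a late assay on the second card with 2 wells, which were averaged. Its ΔCt at 24 h was 12.47, 12.24 and 13.19 in untreated and 11.07, 10.57 and 12.08 in treated αTC1-6 cells, and these groups did not overlap. The log2 difference was 1.39 ± 0.54 (SE; unadjusted p = 0.0458, adjusted p = 0.806, Limma test), with pairs at 1.39, 1.67 and 1.11. With the replicate number as a block the unadjusted p was 0.0064 and the adjusted p 0.285. In the table of Ct values, which repeats the first well in both rows, the groups overlapped and the difference was 1.41.

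At 48 h the ΔCt of miR-21* was 13.71, 12.92 and 13.51 in untreated and 11.30, 13.67 and 11.76 in treated cells. Treated replicate 2 lay on the untreated side, and its 2 wells differed by 1.20 cycles. The log2 difference was 1.14 ± 0.72 (SE; adjusted p = 0.421, Limma test), and it was 0.66 without treated replicate 1 and 1.85 without treated replicate 2. Over the 15 samples the wells of miR-21* differed by 0.025 to 1.79 cycles with a median of 0.38, and by over 1 cycle in 3 samples.

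The other miR-34 assays had overlapping groups at 24 h. MiR-34b-3p, from a hairpin that lies beside that of miR-34c, had a ΔCt of 9.99, 9.67 and 9.88 in untreated and 9.87, 10.04 and 10.02 in treated αTC1-6 cells at 24 h, and of 9.80, 10.49 and 9.88 and 10.50, 10.35 and 10.57, respectively, at 48 h. Its log2 differences were -0.13 ± 0.30 and -0.42 ± 0.32 (SE), with intervals of -0.88 to 0.62 and -1.24 to 0.40, and both took the other sign under median centring. MiR-34c, at late cycles, had differences of -0.30 ± 1.45 and -1.14 ± 0.70, and its 24 h interval, -3.93 to 3.34, was too wide to show a change of the size seen for miR-34a. Its pairs were 2.80, -4.59 and 0.90 at 24 h, and -0.58, -1.48 and -1.36 at 48 h. With the replicate number as a block the unadjusted p at 48 h was 0.0303 and the adjusted p 0.246 (Limma test).

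MiR-34c* comes from the same cluster as miR-34b-3p and has the same seed. Its ΔCt at 24 h was 10.90 and 8.29 in the 2 untreated samples with a value (replicates 2 and 3) and 8.12, 9.01 and 7.88 in the treated ones. At 48 h it was 7.98 and 8.02 untreated (replicates 1 and 3) and 8.84, 9.26 and 9.50 treated. All 3 treated samples at 48 h thus held less than both untreated ones, an order found for 17.2% of the 534 assays tested. The log2 difference was 1.26 ± 0.95 (SE; adjusted p = 0.914) at 24 h and -1.20 ± 0.38 (unadjusted p = 0.0322, adjusted p = 0.243, Limma test) at 48 h. The exact permutation p at 48 h was 0.2, the smallest that 3 against 2 allow. With the Ct of the blank wells taken from the table of Ct values, treated and untreated samples overlapped at both times. The size at 48 h also depended on the reference: it was -0.60 with median centring, -0.62 without a reference and -0.41 with U6 and small nucleolar RNAs, with unadjusted p-values of 0.208, 0.327 and 0.591 (Limma test).

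**Figure D4:**
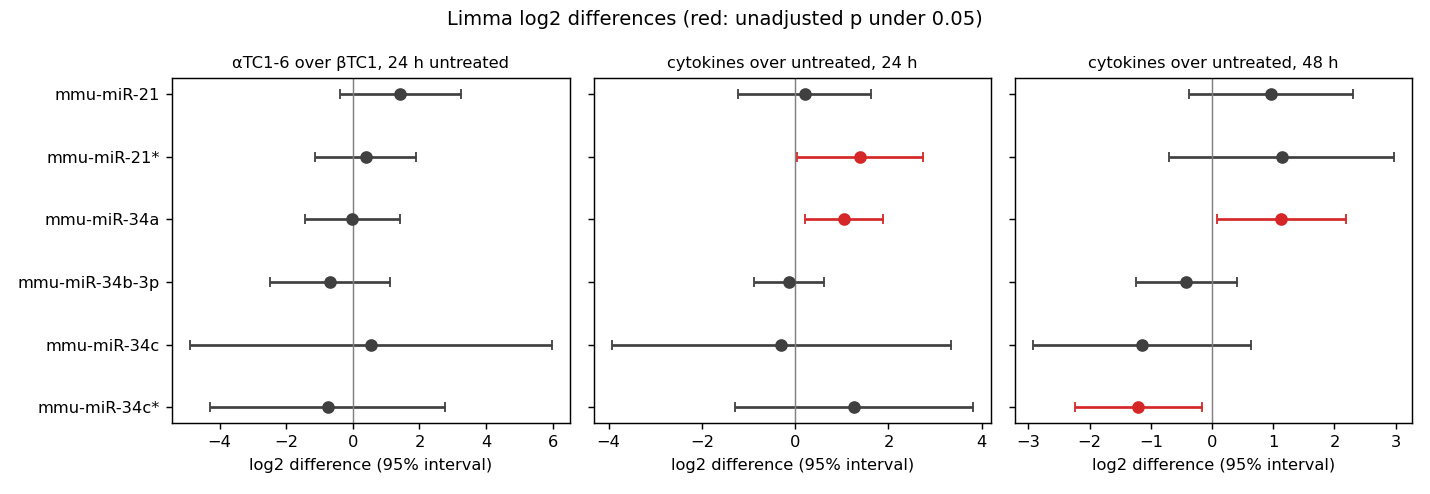
Limma log2 differences of the 6 assays with 95% intervals, for untreated αTC1-6 over βTC1 and for treated over untreated αTC1-6 at 24 and 48 h. Red marks an unadjusted p under 0.05, which miR-34a has at both times, miR-21* at 24 h and miR-34c*, in the other direction, at 48 h; no adjusted p is under 0.05.

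Of the 6 members, 0 passed the adjusted threshold of 0.05 at 24 h, where 0.225% of the assays tested did, and 0 at 48 h, where 0.562% did (Limma test). At an unadjusted p under 0.05 there were 2 of 6 members at 24 h, beside 4.49% of all assays, and 2 of 6 at 48 h, beside 11.2%. Without a reference these member counts were 0 and 0, and with U6 and small nucleolar RNAs they were 1 and 0, where the count over all assays at 48 h went from 60 to 19. With the replicate number as a block the member counts were 2 and 3, and the counts over all assays were 47 and 121. The median log2 difference of the members was 0.63 at 24 h and 0.27 at 48 h, and that of all assays tested was -0.15 and -0.51. The members were higher in treated cells in 4 of 6 cases at 24 h and in 3 of 6 at 48 h. Between untreated αTC1-6 cells at 48 and 24 h, 0 members passed, beside 5.93% of all assays, and 0 had an unadjusted p under 0.05, beside 8.79%. The 29 assays that passed there became 2 with the table of Ct values, 1 among assays with a Ct in every sample and 0 with undetermined wells treated as missing.

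The comparison at steady state asked which miRNAs differ between the α and the β cell line without treatment. MiR-21 was lower in βTC1, with a ΔCt of 3.40 and 3.19 in replicates 1 and 2, than in any untreated αTC1-6 sample of 24 h, and the well of replicate 3 was blank. This order, αTC1-6 above βTC1 without overlap, was found for 17.3% of the 480 assays tested. The log2 difference was 1.42 ± 0.69 (SE), a 2.68-fold level with an interval of -0.40 to 3.24 (adjusted p = 0.176, Limma test; exact permutation p = 0.2, the smallest that 3 against 2 allow).

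Whether the steady state difference of miR-21 passed the test depended on the reference. It did when samples were centred on their median (2.07, adjusted p = 0.0218) and without a reference (1.91, adjusted p = 0.012), and it did not with U6 and small nucleolar RNAs (1.31, adjusted p = 0.26). With the Ct of the blank well taken from the table of Ct values the difference was 1.48 (adjusted p = 0.144). In all, 0 of 6 members passed under the miR-26a reference, where 29.6% of all assays did (142 of 480, against 101 of 539 with the table of Ct values), and 0 had an unadjusted p under 0.05, beside 37.9%. MiR-34a was almost the same in both lines, at -0.013 ± 0.58 (SE), though with an interval of -1.45 to 1.42.

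**Figure D5:**
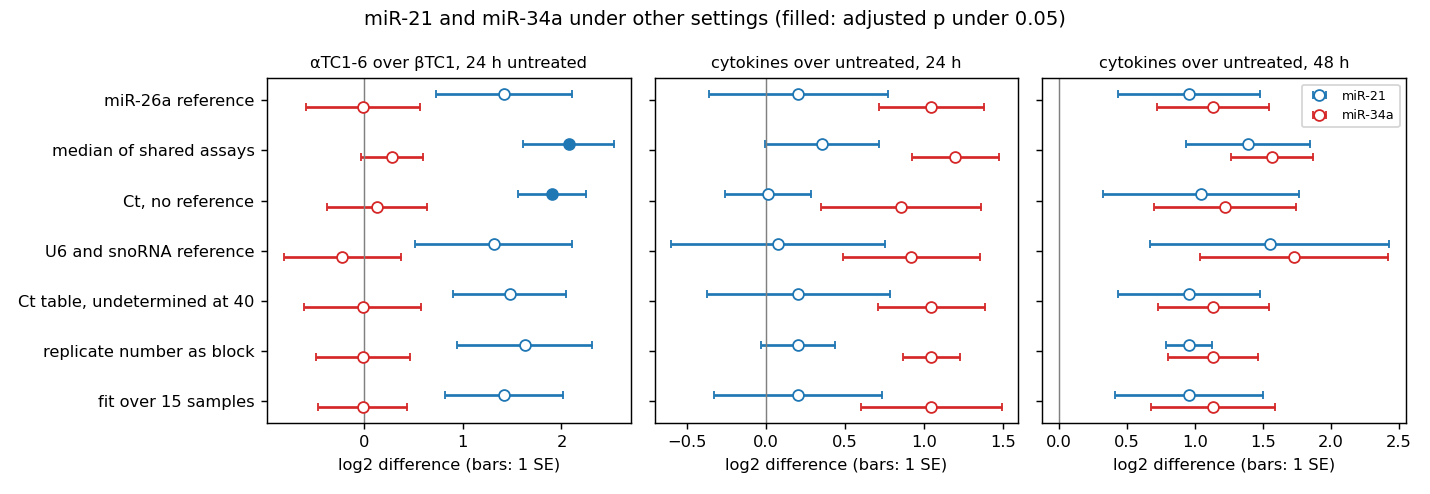
Log2 differences of miR-21 and miR-34a (bars: 1 SE) under 7 settings, for the 3 comparisons named above the panels. Filled points, which have an adjusted p under 0.05, are those of miR-21 at steady state with median centring and without a reference; at 48 h all points lie to the right of 0.

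Of the seed relatives, 3 were tested at steady state and 1 passed, lower in αTC1-6, beside 29.6% of all assays. This was miR-449a, which carries the seed of miR-34a and is known from ciliated epithelia, with a ΔCt of 10.61, 7.21 and 8.44 in βTC1, against 16.45 and 16.26 in 2 untreated αTC1-6 samples of 24 h and a well at 40 cycles in replicate 1. Its adjusted p was 0.0055 (Limma test), and 0.0143 with the table of Ct values, in which that well has a Ct. MiR-449c had a ΔCt of 9.59, 6.19 and 7.33 in βTC1 and of 13.69 and 14.24 in the αTC1-6 samples with a Ct, and its adjusted p was 0.084. MiR-449b had a Ct in 6 of 15 samples of the normalized table, the 6 αTC1-6 samples of 48 h, but in 14 of 15 in the table of Ct values, so no difference between the times is given for it. In the cytokine comparisons 3 seed relatives were tested at 24 h, without miR-449b, and 4 at 48 h. None of those tested passed, and none had an unadjusted p under 0.05 (Limma test). Other settings differed at 24 h. In the table of Ct values miR-449b was 1.47 (unadjusted p = 0.0368, adjusted p = 0.843, Limma test) and miR-449a was -0.15. With undetermined wells treated as missing miR-449a was 1.81 (unadjusted p = 0.0309, adjusted p = 0.672, Limma test).

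Other miRNAs linked to cytokines were read for comparison. Of 10 listed, 8 were tested at 24 h, where 0.225% of all assays passed the adjusted threshold, and 9 at 48 h, where 0.562% did. At 48 h 1 rose and 0 fell: miR-146a, which is transcribed in response to NF-κB and lowers Irak1 and Traf6, rose by 3.82 ± 0.27 (SE; adjusted p = 0.00458, Limma test) on the log2 scale, with pairs at 3.72, 3.69 and 4.06. This call was lost with the replicate block (adjusted p = 0.0744), without a reference (0.25), and without treated replicate 2 (0.0744) or treated replicate 3 (0.0844), at differences of 3.72 to 3.91. At 24 h 0 passed, with miR-146a at 3.30 ± 0.49 (adjusted p = 0.0985). MiR-155, another miRNA of the NF-κB response, had differences of 1.30 at 24 h and 1.18 at 48 h without passing, and miR-149 had -2.39 ± 0.64 at 48 h (adjusted p = 0.161). The list's median was -0.22 at 24 h and -0.37 at 48 h, beside -0.15 and -0.51 for all assays tested. At steady state 3 of 8 were higher in αTC1-6, beside 29.6% of all assays that passed, all of the miR-29 family, which lowers collagens and Mcl1, with miR-29a at 2.29 ± 0.54 (adjusted p = 0.0173, Limma test), a call lost without αTC1-6 replicate 1 (0.0557) or 2 (0.0747) or βTC1 replicate 1 (0.0536).

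Of 10 other miRNAs linked to p53, 9 were tested at 24 h and 10 at 48 h, and 0 passed at either time. At an unadjusted p under 0.05 there were 0 and 1, beside 4.49% and 11.2% of all assays tested (Limma test). The 1 was miR-107, lower in treated cells at -0.95 ± 0.40 (SE) at 24 h and -1.37 ± 0.49 at 48 h (unadjusted p = 0.0365, Limma test). The list's median was 0.018 at 24 h and -0.21 at 48 h, beside -0.15 and -0.51 for all assays tested. At steady state 2 of 9 passed, beside 29.6% of all assays, both lower in αTC1-6: miR-194, from a cluster shared with miR-192, at -3.42 ± 0.60 (adjusted p = 0.0055), and miR-145, a marker of smooth muscle and stroma, at -1.90 ± 0.50 (adjusted p = 0.0271, Limma test). The call of miR-145 was lost with the table of Ct values (0.0525) and without any 1 of the 6 samples except βTC1 replicate 3, at up to 0.118 without αTC1-6 replicate 2.

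The profile most like that of miR-34a over the 12 αTC1-6 samples, among 309 other assays with a Ct in all of them, was that of miR-203, with a Pearson r of 0.91. MiR-146a (0.82), miR-466c-5p (0.75), miR-145 (0.75) and miR-801 (0.72) came next, and with samples centred on their median miR-203 and miR-146a remained the first 2, at 0.90 and 0.88. For miR-21 the 5 were rno-miR-463 (0.77), miR-136* (0.76), miR-145 (0.73), miR-218 (0.72) and miR-194 (0.71). After median centring miR-801 ranked 12 for miR-34a, at 0.66, and for miR-21 rno-miR-463 ranked 2, miR-218 ranked 8 and miR-136* ranked 10, at 0.62. MiR-21 and miR-34a themselves had an r of 0.55, which was 0.68 after median centring. These are descriptions over 12 samples that share the reference miR-26a and both treatment and time, and the median r over all assays was -0.16 for miR-34a and 0.11 for miR-21.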

How the data were processed

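Total RNA of each sample was reverse transcribed, preamplified and run on a pair of TaqMan rodent cards by the authors. The deposited normalized values are log2 quantities: ΔCt of each well to miR-26a, with undetermined wells at a Ct of 40. Some wells at 40 there, mostly on the first card at 24 h, have a Ct in the other table, for a reason not given in the sources used here. The deposited table of Ct values (threshold cycles) was used to recover Ct and as an alternative. The authors' fold changes and p-values in a separate table were not used. The study names several reference genes, while the deposited ΔCt equals Ct minus that of miR-26a.

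From these, duplicate wells were averaged, control assays and miR-26a left out, and assays kept with a Ct in at least 50% of the samples compared. Limma 3.58.1 (R 4.3.3) was fitted to -ΔCt of the groups compared, two-sided, with Benjamini-Hochberg adjustment within each card (375 and 209 assays, cards told apart by their order in the table) and a threshold of 0.05. The code was checked on simulated data. Exact permutation tests used scipy 1.17.1. Replicates are independent biological replicates per the study's methods; 3 per group limit the precision, and no error per well is given.

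All 6 members were named, with seed relatives, examples from 10 cytokine-linked and 10 p53-linked miRNAs, and the 5 assays most like miR-21 and miR-34a. The examples were not always the largest differences. At steady state miR-141, at -3.53 ± 3.84 (SE), and miR-192, at -2.83 ± 0.81, were larger in size than miR-145, and neither passed the adjusted threshold. MiR-155, at 2.65 ± 1.12, was larger there than miR-29a and did not pass (adjusted p = 0.113, Limma test). With cytokines at 24 h miR-141, at 2.20 ± 3.70, was larger in size than miR-107 and did not pass either. Members and lists were chosen with earlier results of these data known. Alternatives were the reference, the table, the filter, the handling of undetermined and late wells, the samples in the fit, the adjustment, a replicate block and leaving out each replicate.

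Replicate numbers in the labels were checked for pairing over the 278 assays with a Ct in all samples. Deviations from the group means correlated between same-numbered treated and untreated αTC1-6 samples at 0.28, 0.36 and 0.48 at 24 h and at 0.33, 0.44 and 0.26 at 48 h, so numbers pair these samples. Between αTC1-6 and βTC1 the correlations were 0.078, 0.095 and 0.064, and between untreated samples of the 2 times -0.045, 0.24 and 0.073, so numbers pair neither.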

Additional observations from a re-analysis of the deposited data

Results flagged for a closer look

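A total of 4 member wells were blank in the normalized table but had a Ct in the other deposited table, which the comparisons did not use for them. They were miR-21 in βTC1 replicate 3 (Ct of 20.999, against 21.8 and 21.9 in the other 2), and miR-34c* in untreated αTC1-6 replicate 1 at 24 h (26.9), untreated αTC1-6 replicate 2 at 48 h (26.0) and βTC1 replicate 1 (27.0).

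MiR-34c* moved in opposite directions at the 2 times in every same-numbered pair with both values, 2 pairs per time: the pairs gave 1.89 and 0.41 at 24 h, and -0.87 and -1.48 at 48 h. The effect at 48 h minus that at 24 h was -2.46 ± 1.06 (SE; unadjusted p = 0.0522, adjusted p = 0.526, Limma test). It was -1.23 without normalization, -1.59 with U6 and small nucleolar RNAs and -1.50 with the table of Ct values, and it ran from -3.77 without untreated replicate 3 of 24 h to -1.16 without untreated replicate 2 of 24 h. With the Ct of the blank wells filled in from the other table the missing pairs were -0.23 at 24 h and -0.091 at 48 h, so the directions were then no longer opposite throughout.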

How the results depend on the processing

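No member passed the adjusted threshold under any alternative, except miR-21 at steady state, with 1 member past it under median centring (2.07) and 1 without normalization (1.91). Of 324 log2 differences under alternatives other than leaving out a replicate, 310 kept their sign and their side of the threshold and 12 reversed, with the cause not tested. At steady state miR-34a was 0.29 with median centring and 0.13 without normalization, and miR-34c was -0.095 with Ct above 35 set to 35, which also gave miR-34c 0.023 at 24 h. MiR-34b-3p was 0.021 at 24 h and 0.013 at 48 h with median centring, and 0.18 at 48 h with U6 and small nucleolar RNAs. For the effect at 48 h minus that at 24 h, miR-21* was 0.027 with median centring, 0.025 without normalization, 0.47 with U6 and small nucleolar RNAs and 0.16 with the table of Ct values, and miR-34b-3p was 0.43 with U6 and small nucleolar RNAs.

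Leaving out each replicate in turn reversed 23 of 216 differences, and a lone replicate that remained was assumed to vary like the other group. The ranges at steady state were -0.52 to 0.27 for miR-34a, -0.98 to 2.94 for miR-34c and -2.06 to 0.55 for miR-34c*. At 24 h they were -0.082 to 0.69 for miR-21, -1.32 to 1.11 for miR-34c and -0.048 to 2.56 for miR-34c*. For untreated cells at 48 over 24 h they were -0.73 to 0.036 for miR-21 and -0.34 to 0.0036 for miR-34b-3p, and for the effect at 48 h minus that at 24 h -0.72 to 0.46 for miR-21*, -0.097 to 0.44 for miR-34a and -2.26 to 0.18 for miR-34c. For miR-34a they stayed within 0.91 to 1.18 at 24 h and 0.95 to 1.49 at 48 h. The replicate block changed no call of a member in any of the 5 comparisons; at steady state, where numbers do not pair the samples, miR-21 was 1.63 (adjusted p = 0.206). Over all assays the block took the calls at 48 h from 3 to 0, miR-146a among them (adjusted p = 0.0744), and those at 24 h from 1 to 0.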
